A study of Mus musculus with 4 samples.

Results

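The 10 genes described here encode the PIWI proteins and the core of the piRNA pathway: Piwil1, Piwil2, Piwil4, Mov10l1, Tdrd1, Tdrd9, Tdrkh, Pld6, Mael and Asz1. They were chosen by symbol among the 52636 genes of the table because Piwil4 was strongly higher in the lungs labelled Yap CKO, so the difference between the groups is given for them as a description, without a p-value. All 10 were found, on 10 different chromosomes. RNA sequencing compared whole lungs, taken at embryonic day 14.5 from C57BL/6 mice, between wild-type controls (n = 2) and embryos with a conditional knockout of Yap (Yap CKO, n = 2), which the series title places in the epithelium. The labels name neither the Cre driver nor the exons removed, and do not say whether the libraries came from separate embryos. P-values therefore measure the spread between these libraries, which may be technical for the knockout. Controls 1 and 2 did not hold the same material, as their sex-linked transcripts, given below, differed. Yap, encoded by Yap1, is the transcriptional coactivator that the Hippo pathway restrains.

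PIWI proteins are the germline branch of the Argonaute family. They carry piRNAs, small RNAs cut from long single-stranded precursors, and use them to find and silence transposons. In the mouse the pathway is best known in the testis: Piwil2 (MILI) cuts transposon RNA in the cytoplasm, Piwil4 (MIWI2) enters the nucleus of fetal male germ cells and directs DNA methylation to transposons, and Piwil1 (MIWI) acts later, in meiotic and haploid cells. Mov10l1 is the helicase that feeds precursors to the machinery, Pld6 the nuclease of the outer mitochondrial membrane that cuts them, and Asz1 and Tdrkh are mitochondrial scaffolds beside it. Tdrd1 and Tdrd9 are Tudor domain partners of PIWI proteins, and Mael works with them in transposon silencing. Outside the germline, Piwil4 has been described in multiciliated cells of the mouse airway.

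Depth was similar between libraries, from 17756301 to 21333878 reads counted to genes. The lung labels were checked against marker genes. The lung epithelial factor Nkx2-1 stood at 2569 to 3333 normalized counts, and the 10 epithelial markers summed to 14886 to 16991. Single markers differed within that sum: limma called 2 of the 10 higher in Yap CKO and 2 lower, against 2.33% of all genes tested. Sftpb and Sftpc were higher (log2 differences 2.81 and 0.97), and Shh and Sox2 lower (-1.86 and -0.91). Yap1 itself had normalized counts of 5686 and 3467 in the controls against 3209 and 4483 in the knockout, so the groups overlapped (log2 difference -0.23, adjusted p = 0.683, limma). The label of the knockout is thus not checked by the targeted gene, and each direction below is that of the libraries labelled Yap CKO. Control 1 held transcripts of the Y chromosome (Ddx3y, 1726 normalized counts, against 5.77 to 16.4 in the other 3 libraries). The X-linked Xist stood at 42.6 in control 1 and 46726 in control 2, and at 42729 and 50045 in Yap CKO 1 and 2. Sex was thus not balanced between the groups, and its part in the differences was not tested. Heart muscle markers, 15 of 15 of which had reads in every library, had summed levels of 1773 and 51682 in controls 1 and 2, against 11711 in the first knockout library and 2068 in the second.

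The sequence before the start of each gene was read from RefSeq on the GRCm38 assembly, the same build as the deposited table (mm10), where 9 of the 10 genes had an entry, with 13 starts in all. Piwil2 had none. The stretches before Piwil4 and Asz1 are shown because these genes had the largest differences between groups. They are written on the gene's own strand, run up to the first annotated exon, and have each CG dinucleotide, the site of DNA methylation, in capitals.
Piwil4, chr9:14740734-14740922, minus strand: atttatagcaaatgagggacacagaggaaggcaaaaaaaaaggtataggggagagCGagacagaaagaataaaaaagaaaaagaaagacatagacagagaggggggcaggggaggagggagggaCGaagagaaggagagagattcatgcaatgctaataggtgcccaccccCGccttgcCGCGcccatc
Asz1, chr6:18109062-18109311, minus strand: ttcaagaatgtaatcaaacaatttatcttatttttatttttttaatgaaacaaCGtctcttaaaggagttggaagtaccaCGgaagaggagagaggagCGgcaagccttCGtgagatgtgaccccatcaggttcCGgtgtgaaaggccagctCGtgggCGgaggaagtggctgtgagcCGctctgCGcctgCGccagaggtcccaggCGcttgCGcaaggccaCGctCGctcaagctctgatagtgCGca
Over the full 250 bases before the RefSeq start, Piwil4 held 10 CG dinucleotides and Asz1 held 15, against a median of 6 over 32817 mouse starts. Of the 10 before Piwil4, 5 lie in the stretch printed, and the others overlap the first annotated exon. RefSeq gives Piwil4 another start inside the gene, and the 250 bases before that one held 0.

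A second feature was shared by several of the genes. The E-box CACGTG, a palindrome that reads the same on both strands, lay within the 250 bases before a start in 6 of the 9 genes with an entry (7 of 13 starts, with 2 of the Tdrd1 windows sharing the same match). Among all 32817 starts 6.02% held it. That share counts single starts, not genes, and is not matched for CG content. The motif holds a CG itself, and the 7 windows with a match held 8 to 22 CG, against a median of 6 over all starts. The windows below show these matches in capitals, the match nearest the start for each gene, since they set the genes that share the motif apart from Piwil4, Asz1 and Tdrkh, where no match was found.
Piwil1, chr5:128736080-128736109, plus strand, 154 bases before the start: atcagggcccagCACGTGtccacctcgccg
Mov10l1, chr15:88982744-88982765, plus strand, 246 bases before the start: ccttCACGTGctaaccgccaac
Pld6, chr11:59787673-59787702, minus strand, 33 bases before the start: ggggcgggctggCACGTGttgggcgcgcaa
Tdrd1, chr19:56826186-56826208, plus strand, 11 bases before the start: tggggctgcgcgCACGTGggagt
Tdrd9, chr12:111971452-111971481, plus strand, 95 bases before the start: gcacgaggctccCACGTGcatgcagggcct
Mael, chr1:166238950-166238979, minus strand, 223 bases before the start: taccaggcctacCACGTGacaatccccgcc
The motif GGAATG, searched on both strands as the core of the site bound by TEAD factors, the DNA-binding partners of Yap, was in 0 of the 13 member windows and in 12.6% of all. The E2F motif GCGGGAA was likewise in none of the member windows (3.82% of all), and the forkhead motif TGTTTAC was in 1, before the inner start of Piwil4 (3.16% of all). A match describes letters, not a bound site, and a missing match says only that these letters are not in this window.

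Among the PIWI proteins themselves, Piwil4 changed from near absence to a clear signal, Piwil2 stayed low and Piwil1 was silent. Piwil4 (ENSMUSG00000036912, mm10 chromosome 9, 14696230 to 14740733) was nearly absent from controls 1 and 2, with normalized counts of 1.94 and 1.17, and reached 298 and 225 in the knockout libraries 1 and 2. Both knockout libraries were far above both controls. The group means were 1.55 ± 0.544 and 261 ± 51.9 (SD, n = 2). The knockout libraries held 551 reads and the controls 3. Scaled by the libraries' divisors, the ratio was 164 with an exact 95% counting interval of 55.8 to 798, which covers counting error only. It leaves out the difference between replicate libraries, and Piwil4 was chosen for this rise, so it is a description. In a whole organ, more cells with the transcript and more transcript per cell cannot be told apart.

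Piwil2 (chromosome 14, 70372477 to 70429383) was measured at 7.75 and 8.19 in the controls and at 18.3 and 14.0 in Yap CKO, from 15 and 34 reads in all. Its groups did not overlap, but its log2 difference of 0.92 ± 0.43 (SE) did not pass the threshold of an adjusted p under 0.05. Piwil1 (chromosome 5, 128702524 to 128755474) had 0 reads in all 4 libraries. A count of 0 allows up to 3 reads, or 2.80 to 3.51 normalized counts, depending on the library.

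**Figure D1:**
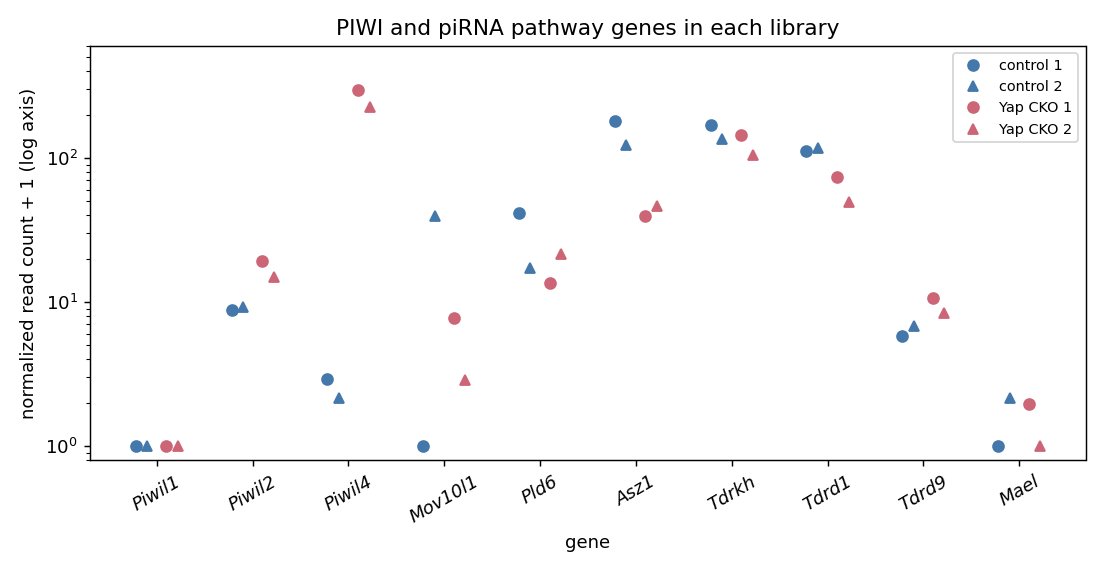
Normalized read counts plus 1 (log axis) of the 10 genes, 1 point per library, with controls in blue and Yap CKO in red. Piwil4 stood at 298 and 225 in Yap CKO against 1.94 and 1.17 in the controls, Asz1 and Tdrd1 lay lower in both Yap CKO libraries, and Piwil1 had 0 reads throughout.

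No other member was called higher. Among the genes that make and load piRNAs, the mitochondrial scaffold gene Asz1 (chromosome 6, 18050964 to 18109061) went the other way, at 180.2 and 123 in the controls and 38.5 and 45.7 in Yap CKO. Both knockout libraries lay below both controls. The means were 152 ± 40.6 and 42.1 ± 5.10, a log2 difference of -1.80 ± 0.27.

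Tdrd1 (chromosome 19, 56826209 to 56870012) stood at 110.5 and 116 in the controls and 73.1 and 48.5 in Yap CKO. Its groups were apart too, by -0.91 ± 0.26 on the log2 scale, without passing the threshold. Tdrkh (chromosome 3, 94413273 to 94434668) stood at 168 and 136 in the controls and 144 and 104 in Yap CKO, with overlapping groups (-0.30 ± 0.23). So did the nuclease gene Pld6 (chromosome 11, 59783897 to 59787645), at 40.7 and 16.4 in the controls and 12.5 and 20.5 in Yap CKO (-0.66 ± 0.52). The 2 controls of Pld6 differed more from each other than the group means did.

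The helicase gene Mov10l1 (chromosome 15, 88982909 to 89055152) had no read in control 1 and stood at 38.6 in control 2, against 6.73 and 1.86 in the knockout libraries. Control 2 supplied 33 reads, and both knockout libraries together 9. A short form of Mov10l1 is known from the heart, where it was described as a cardiac helicase. The order of the libraries, with control 2 highest, then Yap CKO 1, Yap CKO 2 and control 1, was that of the summed heart muscle markers given above. Their part in the values of Mov10l1 was not tested. Its log2 difference was -0.42 ± 1.62 with all libraries, 2.23 without control 2 and -3.07 without control 1, and it was -2.09 with edgeR and -2.17 with DESeq2. The next expressed gene 4581 bases away, the pannexin gene Panx2, was also highest in control 2, at 49.1 against 10.3 to 18.4 in the others (-1.12 ± 0.54, adjusted p = 0.331, limma). Without control 1 the log2 difference of Panx2 was -1.80.

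Tdrd9 and Mael stayed below the filter on low values. Tdrd9 (chromosome 12, 111971559 to 112068854), a helicase that acts with Piwil4 in the germline, had 5 reads in each control and 10 and 8 in Yap CKO 1 and 2, or 4.85, 5.85, 9.61 and 7.46 normalized counts. Mael (chromosome 1, 166201201 to 166238747) had 1 read in control 2, 1 in Yap CKO 1 and 0 in the others. With the filter in place neither gene was tested.

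Of the 10 genes 7 passed the filter, a mean of at least 10 normalized counts over the 4 libraries. Piwil4 and Piwil2 passed it only through the knockout libraries (control means 1.55 and 7.97), and Mov10l1 mainly through control 2. Of the 7, limma called 1 higher (Piwil4) and 1 lower (Asz1). Among all 19472 genes tested it called 2.33%, with 1.19% higher and 1.15% lower. The groups did not overlap for 4 of the 7, with Piwil4 and Piwil2 above and Tdrd1 and Asz1 below in Yap CKO. Over all genes tested the groups did not overlap for 50.8%, with 25.2% above and 25.6% below. As the genes were chosen for this contrast, nothing is read from these counts. The median log2 difference of the 7 was -0.42, against -0.0050 over all genes tested. Without Yap CKO 1 or without Yap CKO 2, 0 of the 7 were called, in fits that called 2 and 7 genes of the whole table. Fits that left out a control called a larger share of all genes than the main fit. Without control 1 the log2 differences of Piwil4 and Asz1 were 6.90 and -1.53, and without control 2 they were 6.47 and -2.08. Mov10l1 (without control 1, lower) and Tdrd1 (without control 2) passed there as well, and nothing is read from this.

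Levels were compared between genes per kilobase of annotated exon. In the controls Asz1 was highest, at 63.7 and 43.4 normalized counts per kilobase. It was followed by Tdrkh (27.3 and 22.1), Tdrd1 (20.3 and 21.3) and Pld6 (23.2 and 9.32), and the range of Pld6 overlapped those of Tdrd1 and Tdrkh. Mov10l1, Piwil2, Tdrd9, Mael and Piwil4 all stood below 10 per kilobase in each control. In Yap CKO the order changed at the top. Piwil4, at 55.3 and 41.7 per kilobase, was above the other 9 genes in both libraries, followed by Tdrkh (23.5 and 17.0), Asz1 (13.6 and 16.1), Tdrd1 (13.4 and 8.91) and Pld6 (7.11 and 11.7). Tdrd1 and Pld6 overlapped, and the nearest values of Tdrkh and Asz1 and of Asz1 and Tdrd1 lay close together. Even so, each gene's mean over the libraries was below the median gene tested, at 113 per kilobase. Asz1, the highest, was at 34.2.

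The rest of the pathway was measured with a list of 25 further genes, of which 24 were in the table and 15 passed the filter. None was called by limma, against 2.33% of all genes tested, with 4 at an unadjusted p under 0.05 (18.9% of all genes tested). The count was also 0 with edgeR, which called 2.07% of all genes, and with DESeq2, which called 5.54%. With 15 genes, a count of 0 calls is near those shares, and nothing is read from it. Among the 15, 8 differences were positive and 7 negative, with a median of 0.14. Tdrd12 and Btbd18 passed the filter only through the knockout (control means 5.93 and 8.94). Both are among the positive differences, so nothing is read from the signs. The highest per kilobase were Prmt5 and Wdr77, which encode the arginine methyltransferase complex that marks PIWI proteins for Tudor domain binding, and Tdrd7 and Mybl1. Prmt5 and Wdr77 also modify spliceosome and histone proteins in every cell. Prmt5 stood at 2678 and 3009 in the controls and 2664 and 2908 in Yap CKO (-0.03 ± 0.10, adjusted p = 0.912, limma), a small difference with overlapping groups. Wdr77 was at 1290 and 1449 in the controls and 1651 and 1799 in Yap CKO (0.33 ± 0.10, adjusted p = 0.164, limma). For Tdrd7, a Tudor domain gene also active in the lens, the difference was -0.13 ± 0.14, and for Mybl1, the transcription factor that switches on piRNA clusters in meiosis, it was -0.36 ± 0.18. Without control 1 the gene Kif17 passed, and without control 2 Pnldc1, the exonuclease that trims piRNAs, and Wdr77 did, all higher. Those fits called a larger share of all genes than the main fit, and nothing is read from them. These 3 names were noted after their values were seen.

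Averaged over the 4 libraries, the somatic relatives of the pathway each had a higher level per kilobase than any member, the lowest being Ago4 at 49.1. This did not hold in every part of the data. In the controls Asz1 averaged 53.6 per kilobase, above Ago4 at 46.3. In Yap CKO 1 Piwil4, at 55.3, was above Ago3 (52.4) and Ago4 (50.4). Of 14 genes of the Argonaute and microRNA machinery all were tested and limma called 0, as did edgeR and DESeq2, while 3 had an unadjusted limma p under 0.05. Over all genes tested limma, edgeR and DESeq2 called 2.33%, 2.07% and 5.54%, and 18.9% had an unadjusted limma p under 0.05. With 14 genes these counts are near those shares, and nothing is read from them. Their log2 differences ran from -0.21 to 0.32 with a median of -0.01. The 4 highest per kilobase were Drosha, the nuclease that cuts primary microRNAs, the microRNA-binding Argonautes Ago1 and Ago2, and the Dicer partner gene Prkra. Ago2 stood at 6208 and 6711 in the controls and 5660 and 5868 in Yap CKO (-0.16 ± 0.09). Drosha, Ago1 and Prkra differed by -0.14 ± 0.09, -0.21 ± 0.09 and -0.07 ± 0.13.

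Germ cell transcripts were sparse in all libraries. Of 12 germ cell markers Dppa3, Pou5f1 and Dppa5a had 0 reads in every library. The 12 markers summed to 95.9 and 55.0 normalized counts in the controls and to 76.9 and 84.8 in Yap CKO. The sums were carried mainly by Dnd1, Nanos3 and Ddx4, and the range of the knockout lay inside that of the controls. A further list held 18 genes with known roles in germ cells, of which 7 passed the filter. Calls numbered 0 by each of the 3 tools, with 2 at an unadjusted limma p under 0.05. Over all genes tested limma, edgeR and DESeq2 called 2.33%, 2.07% and 5.54%, and 18.9% had an unadjusted limma p under 0.05. With 7 genes nothing is read from these counts. Ddx4 is in this list, in that of the further pathway genes and among the germ cell markers. Zcwpw1, a reader of histone marks at recombination sites, was at 430 and 340 in the controls and 400 and 377 in Yap CKO. Stag3, a cohesin subunit of meiosis, was at 233 and 173 against 272 and 285 (0.47 ± 0.18, adjusted p = 0.236, limma). Brdt, a bromodomain protein of the testis, was at 57.2 and 56.1 against 75.0 and 71.8 (0.37 ± 0.22, adjusted p = 0.439, limma). The synaptonemal complex gene Sycp3 stayed below the filter at 4.68 to 13.5.

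Genes that hold germline genes silent in somatic cells were also measured. All 16 were tested and none was called by limma (2 at an unadjusted p under 0.05) or by edgeR, while DESeq2 called Mga. Over all genes tested limma, edgeR and DESeq2 called 2.33%, 2.07% and 5.54%, and 18.9% had an unadjusted limma p under 0.05. With 16 genes these counts are near those shares, and nothing is read from them. Mga, whose protein binds the E-box together with Max in a repressive Polycomb complex, stood at 4862 and 4568 in the controls and 2970 and 3723 in Yap CKO (-0.50 ± 0.13, adjusted p = 0.103, limma). It is named because DESeq2 called it. The highest per kilobase were the corepressor gene Trim28 (-0.11 ± 0.09), the maintenance methyltransferase gene Dnmt1 (-0.00 ± 0.09), its partner Uhrf1 (-0.09 ± 0.09) and the histone methyltransferase gene Ehmt2 (0.05 ± 0.10).

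**Figure D2:**
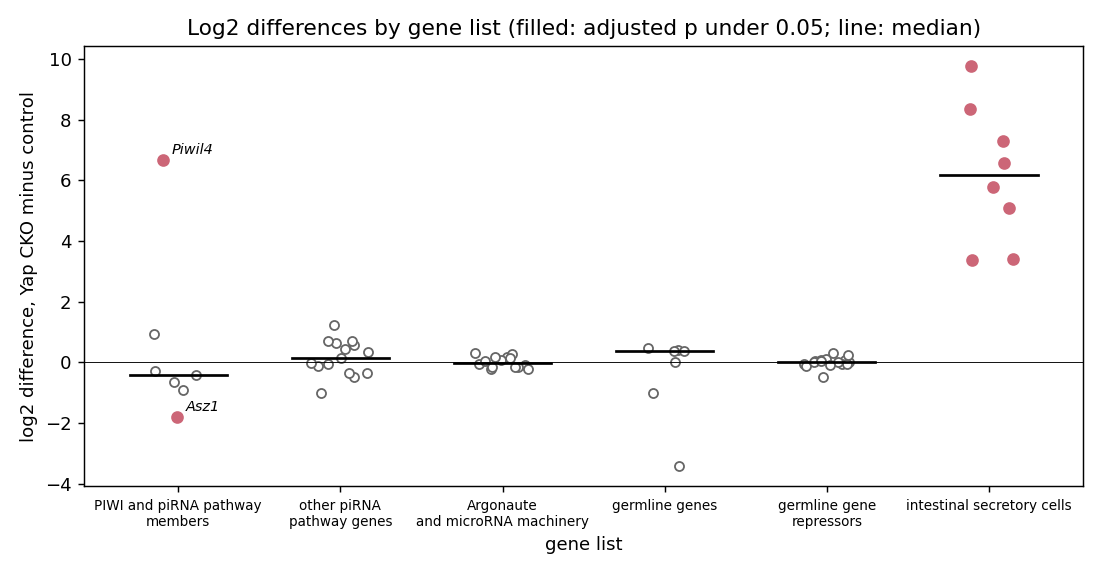
Log2 difference (Yap CKO minus control, vertical axis) of each tested gene of the 10 PIWI and piRNA pathway genes and of 5 gene lists, with filled points for an adjusted p under 0.05 and a line at the median. Piwil4 stands at 6.68 and Asz1 at -1.80, the next 4 lists hold no filled point, and all 8 intestinal secretory genes are filled.

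The gene beside Piwil4 was higher as well. Fut4 encodes a fucosyltransferase that builds the Lewis x carbohydrate of the cell surface. It lies 7586 bases upstream of Piwil4 on the same strand (chromosome 9, 14748320 to 14752393). It stood at 133 and 118 normalized counts in the controls and 360 and 296 in Yap CKO, with both knockout libraries above both controls. It rose from 125 ± 10.4 to 328 ± 44.7 (SD, n = 2), a log2 change of 1.38 ± 0.17 (adjusted p = 0.0183, limma). The call ended in the fits without Yap CKO 1 and without Yap CKO 2, where the log2 differences were 1.24 and 1.51. It also ended without the filter (adjusted p = 0.0641, limma) and without the intensity trend (0.0881). Each of those fits called far fewer genes over the whole table than the main fit did.

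Of the 9 expressed genes within 200 kb of Piwil4, Fut4 was the 1 that passed. Amotl1, which encodes an angiomotin that binds Yap, lies 51173 bases downstream and stood at 4800 and 4650 against 4665 and 4437 (-0.05 ± 0.09, adjusted p = 0.787, limma). Mre11a, a DNA repair nuclease, and Ankrd49 differed by 0.09 ± 0.09 and 0.11 ± 0.10. Cwc15, a splicing factor, and Kdm4d, a histone demethylase, differed by 0.03 ± 0.11 and -0.26 ± 0.55. The pseudogenes Gm47154 and Gm16379 stood at 0.66 ± 0.32 and -0.85 ± 0.27 (adjusted p = 0.331 and 0.172, limma). Without control 2 Gm16379 differed by -1.04. Piwil4 and Yap1 share chromosome 9, with 6.69 megabases between them. Of the 21 tested genes in that interval limma called 0 (1 at an unadjusted p under 0.05), and edgeR and DESeq2 called 0. Over all genes tested limma, edgeR and DESeq2 called 2.33%, 2.07% and 5.54%, and 18.9% had an unadjusted limma p under 0.05. With 21 genes, a count of 0 calls is near those shares, and nothing is read from it.

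**Figure D3:**
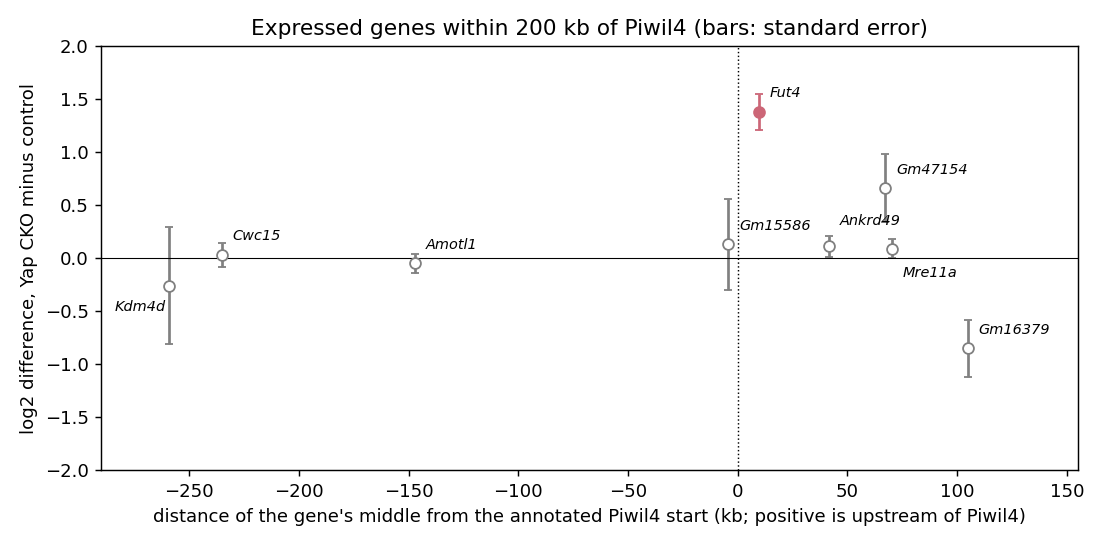
Log2 difference (Yap CKO minus control, vertical axis) with its standard error for the 9 expressed genes within 200 kb of Piwil4, by the distance in kilobases of each gene's middle from the annotated start of Piwil4, with positive values upstream. Fut4 is the only filled point (adjusted p under 0.05), at 1.38, and Piwil4 itself, at 6.68, is not drawn.

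Transcripts that overlap Piwil4 were counted apart from it. The pseudogene Gm15586, inside a Piwil4 intron, stood at 21.3 and 11.7 in the controls and 19.2 and 15.8 in Yap CKO, with overlapping groups. The antisense gene Gm10706, which shares 137 exon bases with Piwil4, had 0 reads in both controls and 17 and 6 in Yap CKO. No source used here gives the strand setting of the counting, so reads of Gm10706 and of Piwil4 cannot be told apart with certainty. Tdrkh shares 2255 exon bases with Oaz3, on the opposite strand, which had 8 and 5 reads in the controls and 11 and 10 in Yap CKO, so the same limit holds there. Gm42463, inside Tdrkh on its own strand, shares no exon base with it and differed by 0.61 ± 0.45. The other genes overlapping a member shared no exon base and stayed below the filter.

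Neighbours of the other members that passed the filter were not called. The 2 genes nearest Asz1 were Wnt2, a signal of the lung mesenchyme, at 1501 and 1159 against 1049 and 1103 (-0.29 ± 0.14, adjusted p = 0.318, limma), and the pseudogene Gm15596 (-0.38 ± 0.25). Without control 2 the log2 difference of Wnt2 was -0.48. Beside Tdrd1, Vwa2, a basement membrane protein, was at 406 and 384 against 206 and 282 (-0.71 ± 0.18, adjusted p = 0.106, limma), with both knockout libraries below both controls, as for Tdrd1. Vwa2 passed in the fits that left out a control, which called a larger share of all genes than the main fit. On the other side of Tdrd1, Ccdc186 differed by 0.25 ± 0.10. The neighbours of Piwil2, Tdrkh and Pld6 and the farther neighbour of Mov10l1, Pim3, differed by -0.22 to 0.12.

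The genes whose values over the 4 libraries were most like those of Piwil4 were Tff3, Cltrn, Hnf4a, Agr2 and Ros1. They were found among 14538 protein-coding genes by the Euclidean distance between log2 values centred on each gene's mean, from 0.924 for Tff3 to 1.44 for Ros1. Tff3, a trefoil peptide of intestinal goblet cells, had no read in either control and stood at 243 and 97.9 in the knockout libraries. Hnf4a, a transcription factor of the intestine and liver, stood at 0.969 and 1.17 against 108 and 68.0. Cltrn, an amino acid transporter partner of kidney and gut, was at 2.91 and 1.17 against 143 and 107. Agr2, a disulfide isomerase of mucus-secreting cells, was at 0.969 and 4.68 against 419 and 236, and the receptor tyrosine kinase gene Ros1 was at 2.91 and 1.17 against 126 and 98.8. All 5 had their highest value in Yap CKO 1, as Piwil4 did. The likeness rests on 4 libraries and mostly on the difference between the groups, and is a description.

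**Figure D4:**
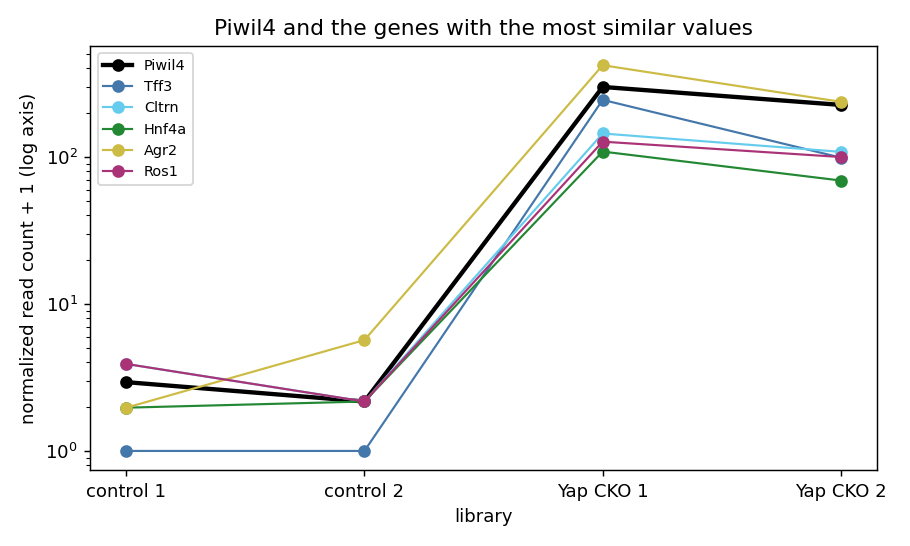
Normalized read counts plus 1 (log axis) in each library for Piwil4 (black) and the 5 protein-coding genes with the smallest distance to it. All 6 genes lie at 4.68 or lower in both controls and at 68.0 or higher in both Yap CKO libraries, with Yap CKO 1 higher than Yap CKO 2.

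Markers of intestinal secretory cells were higher in the same libraries as Piwil4. All 8 of 8 were called higher in Yap CKO, against 1.19% of all genes tested. This list and that of the liver markers were chosen with earlier results of these data known. Tff3 and Agr2 are also among the genes most like Piwil4, so nothing is read from the count. The summed level of the intestinal markers was 91.1 and 59.6 in the controls against 3756 and 2575 in the knockout. Guca2a, Reg4 and Tff3 were at 0 in both controls, and 5 of the 8 passed the filter only through the knockout. Nearly all calls among the intestinal and the liver markers ended in the fits without Yap CKO 1 and without Yap CKO 2. Without the filter 6 and 1 were left, and without the intensity trend 3 and 0. Each of those fits called far fewer genes over the whole table than the main fit did. Liver markers also moved in that direction, summing to 29.1 and 87.7 against 1657 and 904, and most of the sum was Afp, at 1157 and 639 in the knockout. Of 11 liver markers 4 were tested and called higher, 3 of which passed the filter only through the knockout. The groups overlapped for 6 of the 7 below the filter. The part of either cell type in the value of Piwil4 was not tested. The summed germ cell markers, given above, did not separate the groups. Of 8 markers of gonad support cells 6 were tested, with 0 calls by each of the 3 tools and 0 at an unadjusted limma p under 0.05. Over all genes tested limma called 2.33%, and 18.9% had an unadjusted p under 0.05, so nothing is read from 6 genes. The sums of the gonad support markers, 1785 and 1794 against 1925 and 1650, were mostly Sox9, which is also a lung epithelial marker here.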

How the data were processed

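The 4 RNA sequencing libraries of whole lung were 2 labelled control and 2 labelled Yap CKO, and groups and replicate numbers came from the sample titles. The deposited table holds 1 signal per gene and library, a normalized read count that the authors had scaled between libraries. Build mm10, edgeR 3.18.1, DESeq 1.16.0, featureCounts 1.5.0-p1 and Bowtie2 2.2.9 come from the submitters' processing notes, which give no role or order; annotation and strand setting are not given in the sources used here. All values (100%) lay within 0.001 of whole multiples of 1 step per library, so reads were recovered. Symbols, positions and exon lengths came from GENCODE M21 (52489 of 52636 identifiers matched).

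Replicate libraries differed beyond sampling noise (chi-square per degree of freedom 22.1 and 6.6) and were kept apart. Values were tested as log2(value + 1) with limma 3.58.1 (R 4.3.3, intensity trend, two-sided) on the 19472 genes with a mean of at least 10. P-values were adjusted over all of them by the Benjamini-Hochberg method, with calls under 0.05. Residual degrees of freedom were 2, with 4.5 more from the prior over genes. With 1 library of a group left out, the lone sample is assumed to vary like the other group. A log2 difference on this scale understates changes of genes near 0. edgeR 4.0.16 and DESeq2 1.42.0 on recovered reads were alternatives, and all 3 were run on simulated data. The simulation gave every gene the same spread and held no replicate difference like that of the heart muscle markers. It therefore does not show how the tools perform on these libraries. Named genes were all members, the 4 highest per kilobase and any called gene of the lists on the pathway, microRNA machinery, germline genes and repressors, the neighbours and overlapping genes of members, and the 5 genes most like Piwil4. The members and lists were chosen with earlier results of these data known. Motif windows were the 250 bases before RefSeq starts.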

Additional observations from a re-analysis of the deposited data

How the results depend on the processing

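Of 19472 genes 454 were called (231 higher, 50.9%). The count was 56 without the filter, 6 without the intensity trend, 1037 with DESeq2 and, leaving out 1 library at a time, 2 to 2459. With equal totals 292 were higher and 179 lower (62.0% higher). Of the 10 members, 2 were called; 1 remained without the filter and without the trend (Piwil4 in both), and 0 to 3 when 1 library was left out. Among the other piRNA pathway genes the count of 0 became 0 to 2 when 1 library was left out. The titles number the libraries 1 and 2 in each group, but nothing says that a number marks a shared litter or day. With the number as a replicate block 342 genes were called, with the same 2 members. Same-numbered deviations correlated at -0.364 across genes, and a block with the numbers crossed, added after seeing the data, called 972. Piwil4 differed by 5.33 with a pseudocount of 5, by 7.01 with 0.5, and by 7.26 and 7.36 with edgeR and DESeq2. The cause of these shifts was not tested.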

Other observations

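Single germline genes outside the naming rule are given here after their values were seen. Sycp1, the transverse filament of the synaptonemal complex, had normalized counts of 37.8 and 16.4 in the controls against 4.81 and 0 in the knockout libraries, and did not pass (adjusted p = 0.119, limma). Ddx4, the helicase that marks germ cell granules, was at 28.1 and 14.0 against 7.69 and 11.2 (adjusted p = 0.323, limma). Both lay lower in each knockout library than in each control, at few reads. Dnmt3c, a rodent methyltransferase that acts on young transposons in the male germline, was below the filter at 3.88 and 3.51 against 12.5 and 10.3. Tdrd12, a Tudor domain gene of the piRNA pathway, was at 4.85 and 7.02 against 18.3 and 12.1 (log2 difference 1.22 ± 0.48, adjusted p = 0.245, limma). These last 2 lay higher in each knockout library than in each control, as did 25.2% of all genes tested. Dnmt3c was not among the genes tested, and Tdrd12 passed the filter only through the knockout. That share is therefore not a matched background for either gene. Of the 9 further pathway genes below the filter, 2 lay above the controls (Dnmt3c and Stk31), 1 below (Henmt1, at 9.69 and 8.19 against 5.77 and 4.66), and 6 overlapped. No share over all genes below the filter is given, so nothing is read from these counts.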
